A study of Mus musculus with 9 samples.

Results

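The insulin-like growth factor (IGF) axis was followed at the RNA level in mouse embryonic fibroblasts (MEFs) with and without mutations in enzymes of disulfide bond formation in the endoplasmic reticulum. The axis was taken as 10 genes, Igf1, Igf2, Igf1r, Igf2r and Igfbp2 to Igfbp7, out of 19938 genes measured. Each gene was chosen by its symbol, as the brightest probe set over the 9 arrays that carries that 1 symbol, and each of the 10 genes had 1 such probe set. The genes were taken by family name, with earlier results of these data known.

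Cells of 3 genotypes were compared, with 3 arrays of each. TM cells were m/m for both Ero1α and Ero1β and also m/y for Prdx4, an X-linked gene whose mutant allele is null, and DM cells were m/m for both Ero1α and Ero1β with Prdx4 intact. WT cells are labelled wild type, while the methods of the study describe a control that was m/+ for Ero1α, m/m for Ero1β and +/+ for Prdx4, so that the Ero1β mutation may be shared by all 3 groups. All cells were described as T antigen-transformed fibroblasts on a C57B/L6 background, grown in DMEM, and the Ero1 mutations are gene-trap insertions. The methods of the study describe both primary and T antigen-immortalized MEFs and do not say which were on the arrays. Nothing in the labels ties the arrays of 1 genotype to separate cultures or embryos. The p-values therefore measure array-to-array spread that may be technical, and a property of the line cannot be told apart from its genotype.

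IGF1 and IGF2 are secreted growth factors that signal through the receptor tyrosine kinase IGF1R, whereas IGF2R, which is also the cation-independent mannose 6-phosphate receptor, binds IGF2 and delivers it to lysosomes. Outside the cell the ligands are held by IGF binding proteins (IGFBPs), which prolong their life and limit or aid their access to the receptor. Proteases that cleave the IGFBPs release the ligands. IGF1, IGF2 and the IGFBPs all acquire disulfide bonds in the endoplasmic reticulum, where ERO1 and PRDX4 supply oxidizing equivalents. Fibroblasts are a well known source of both ligands and of several IGFBPs.

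The promoter windows of 4 binding protein genes are shown because these genes were higher in TM cells than in WT cells, Igfbp2 and Igfbp7 also in DM cells, and because Igfbp2 and Igfbp5 are neighbours on the same chromosome with 0 protein-coding genes between them. Each window runs from 250 bases before to 50 bases after the annotated start of a RefSeq transcript in GRCm38.p6, written 5′ to 3′ on the strand of the gene. Capitals mark the GC box GGGCGG and the SMAD motif CAGAC, searched on both strands.
Igfbp2, chr1:72824230-72824529, plus strand: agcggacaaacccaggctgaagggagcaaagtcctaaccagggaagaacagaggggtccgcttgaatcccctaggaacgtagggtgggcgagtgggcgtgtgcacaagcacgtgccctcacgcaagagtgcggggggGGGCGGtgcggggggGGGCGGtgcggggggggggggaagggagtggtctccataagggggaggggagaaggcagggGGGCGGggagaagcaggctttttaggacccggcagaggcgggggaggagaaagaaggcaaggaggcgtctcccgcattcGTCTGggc
Igfbp7, chr5:77407996-77408295, minus strand: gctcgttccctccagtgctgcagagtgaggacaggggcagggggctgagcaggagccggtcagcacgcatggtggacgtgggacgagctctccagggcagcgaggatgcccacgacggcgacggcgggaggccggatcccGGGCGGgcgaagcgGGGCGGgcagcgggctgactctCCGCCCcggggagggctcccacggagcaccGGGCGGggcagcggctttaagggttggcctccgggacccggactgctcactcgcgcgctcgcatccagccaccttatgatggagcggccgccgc
Igfbp3, chr11:7213874-7214173, minus strand: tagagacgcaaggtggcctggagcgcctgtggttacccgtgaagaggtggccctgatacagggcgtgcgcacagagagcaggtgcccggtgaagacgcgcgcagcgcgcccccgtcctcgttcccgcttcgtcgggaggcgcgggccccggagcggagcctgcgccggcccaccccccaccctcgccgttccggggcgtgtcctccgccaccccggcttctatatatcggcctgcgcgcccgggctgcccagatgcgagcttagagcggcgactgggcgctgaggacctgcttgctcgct
Igfbp5, chr1:72874816-72875115, minus strand: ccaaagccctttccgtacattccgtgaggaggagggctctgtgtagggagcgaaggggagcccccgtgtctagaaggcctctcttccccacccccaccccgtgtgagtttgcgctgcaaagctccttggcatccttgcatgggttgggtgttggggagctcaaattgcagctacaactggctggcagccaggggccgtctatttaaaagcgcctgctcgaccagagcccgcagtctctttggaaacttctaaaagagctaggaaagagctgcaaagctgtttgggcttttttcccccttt
The Igfbp2 window shown, 1 of 2 for this gene, held 3 GC boxes and 1 SMAD motif and the Igfbp7 window held 4 GC boxes, whereas the Igfbp3 and Igfbp5 windows held neither motif. Among all 32851 promoter windows of the same length, 35.7% held a GC box and 49.6% a SMAD motif. All 10 genes matched a promoter entry, with 14 windows between them, 4 of them for Igf2 and 2 for Igfbp2. Of these windows 6 held a GC box and 8 a SMAD motif. By gene, GC boxes were found for 5 of the 10 (Igf1r, Igf2, Igf2r, Igfbp2 and Igfbp7) and SMAD motifs for 5 (Igf1r, Igf2, Igf2r, Igfbp2 and Igfbp6). The TATA box TATAAA, present in 13.6% of all windows, was found for Igfbp4 and Igfbp6. A match is a run of letters and not a measured binding site.

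Arrays of 1 genotype correlated at r = 0.994 to 0.997 over all genes, and arrays of different genotypes at 0.976 to 0.984. Array medians were 7.62 to 7.72 on the log2 scale. Of the mutated genes, Ero1a was at 9.06 ± 0.076 in TM, 9.46 ± 0.052 in DM and 11.86 ± 0.020 in WT cells and Prdx4 at 6.30 ± 0.41 in TM, 10.68 ± 0.22 in DM and 10.56 ± 0.11 in WT cells (mean log2 intensity ± SD, n = 3 each), lower where the labels give the mutation. Ero1b was not lower in the mutants, at 7.94 ± 0.081 in TM, 7.702 ± 0.023 in DM and 7.65 ± 0.11 in WT cells, close to the array medians. Its TM against WT difference was 0.29 (SE 0.068, adjusted p = 0.00541). The study reports that ERO1β cannot be detected in MEFs, and the control may carry the same mutation. The Ero1β genotype was therefore not checked by its RNA. Of 14 fibroblast markers, 13 were above 7.68, the median over all probe sets and arrays, in TM cells and 12 in DM and in WT cells. Lum was below it in all cells and Thy1 in DM and WT cells. The mean of the 14 was 11.62 to 11.71 on the TM arrays, 10.98 on each of the DM arrays and 10.91 to 10.98 on the WT arrays. The log2 of their summed intensity was 16.34 to 16.37 on the TM arrays, 16.22 to 16.23 on the DM arrays and 15.97 to 16.02 on the WT arrays. Of the 14, 6 were called higher and 0 lower in TM against WT cells, and 2 higher and 2 lower in DM against WT cells. The DM cells differed from the others in 2 ways that bear on what follows. Xist, transcribed from the inactive X chromosome, was at 5.72 ± 0.099 in TM, 12.56 ± 0.068 in DM and 5.70 ± 0.053 in WT cells, so that the sex and the genotype of the DM cells cannot be told apart. Xist was thus low in WT cells too, whereas the control of the methods is +/+ for Prdx4, which the study writes for females. Whether the WT arrays hold that control was not settled. Moreover, 7 of 12 epithelial and mesothelial markers were called higher and 1 lower in DM against WT cells, where TM cells had 0 higher and 2 lower. Their mean was 7.15 to 7.28 on the TM arrays, 9.56 to 9.66 on the DM arrays and 7.71 to 7.72 on the WT arrays. Above 7.68 were 3 of the 12 in TM, 10 in DM and 3 in WT cells. The log2 of their summed intensity was 10.93 to 11.07, 14.16 to 14.30 and 12.40 to 12.47 in the same order. The mesothelial genes Upk3b and Wt1 averaged 12.26 and 11.59 in DM cells, while Msln, also a mesothelial gene, averaged 7.73 in TM, 9.91 in DM and 11.34 in WT cells. None of the endothelial, leukocyte or skeletal muscle markers was called by limma in any comparison. The same held at an unadjusted p under 0.05 and by the methods' t-test, each with the fold limit kept. Some of these markers passed the test under that limit, such as the endothelial Kdr, at 0.52 in TM against WT cells (limma adjusted p = 0.000321).

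A gene was called where limma, fitted over all genes, gave a Benjamini-Hochberg adjusted p under 0.05 and the change was over 1.5-fold. By this rule 6 of the 10 IGF axis genes were called in TM against WT cells, 5 higher and 1 lower, against 9.15% of all genes (5.59% higher, 3.56% lower). In DM against WT cells 5 were called higher and 0 lower, against 10.9% of all genes (5.28% higher, 5.67% lower). The count of 0 lower was also 0 at an unadjusted p under 0.05 and with the methods' t-test, the fold limit kept. Neither setting could alter that count, because it was set by the fold limit alone. Igfbp3 differed by -0.49 (limma adjusted p = 0.000303) and Igfbp6 by -0.34 (limma adjusted p = 0.0116) in DM against WT cells. Both passed the test and fell short of 1.5-fold. In TM against DM cells 5 were called, 3 higher and 2 lower, against 8.29% of all genes (4.68% higher, 3.61% lower). At least 1 comparison called 8 of the 10 genes, and no comparison called the receptors Igf1r and Igf2r. Adjusted p-values under 0.05 at any fold were given to 9 of the 10 genes in TM against WT cells (31.8% of all genes), to 8 in DM against WT cells (36.8%) and to 6 in TM against DM cells (31.8%). Arrays of the compared genotypes did not overlap for 9 of the 10 in TM against WT cells (43.4% of all genes), for 10 in DM against WT cells (46.4%) and for 7 in TM against DM cells (40.1%). The median log2 difference of the 10 genes was 0.85, 0.44 and 0.042 in the 3 comparisons, beside -0.029, 0.025 and -0.046 over all genes. Both comparisons with WT use the same WT arrays, so each has its own values below and the pair is not 2 independent observations. Array intensities were compared between genotypes within a probe set and not between genes, and in bulk RNA fewer expressing cells and less RNA per cell cannot be told apart.

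**Figure D1:**
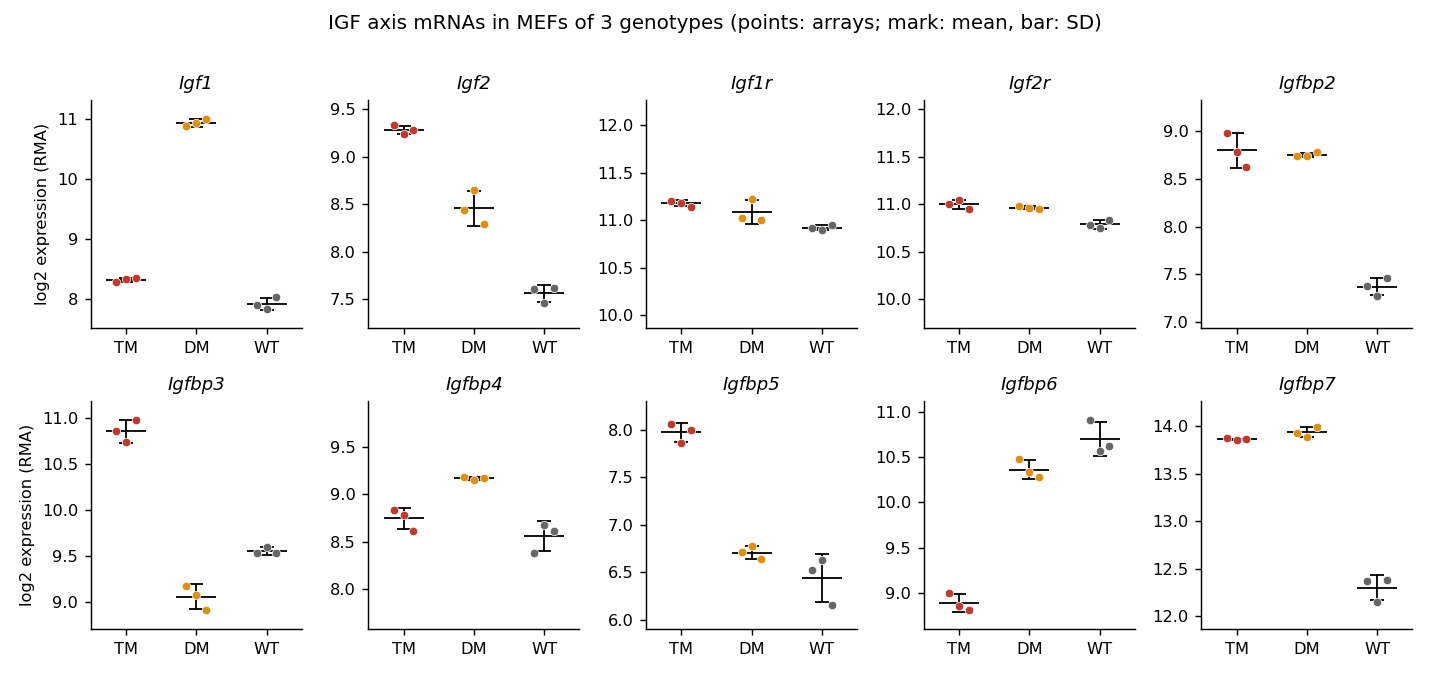
Log2 intensity of the 10 IGF axis genes on each array, 1 panel per gene, with TM, DM and WT from left to right, each point 1 array, each mark the mean and each bar the SD of 3 arrays. The vertical axes differ between panels. Igf1 was highest in all 3 DM arrays, Igfbp3 and Igfbp5 were highest and Igfbp6 lowest in all 3 TM arrays, and Igfbp2 and Igfbp7 were higher in both mutants than in WT cells.

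The 2 ligands differed in the genotype that held most of their RNA. Igf1 was highest in DM cells, 8.08-fold above WT, and Igf2 was highest in TM cells, 3.29-fold above WT. The log2 intensities of Igf1 were 8.29, 8.33 and 8.35 in TM cells, 10.88, 10.93 and 11.0001 in DM cells, and 7.91, 7.83 and 8.03 in WT cells. All 3 genotypes were apart, the DM arrays far above the others and the TM arrays slightly above the WT arrays. The DM against WT difference was 3.01 (SE 0.064, adjusted p = 2.27e-12) on the log2 scale, with a 95% interval of 2.87 to 3.16, and the TM against DM difference was -2.62 (SE 0.064, adjusted p = 1.53e-11). The TM against WT difference of 0.40 (SE 0.064, adjusted p = 0.000360) passed the test but, at 1.32-fold, not the fold limit, so Igf1 was not called there. Igf1 thus moved in the same cells as the epithelial and mesothelial markers and Xist, whose part in the Igf1 difference was not tested.

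Igf2, an imprinted gene whose product is a growth factor of the embryo, had log2 intensities of 9.33, 9.24 and 9.28 in TM cells, 8.44, 8.65 and 8.29 in DM cells, and 7.60, 7.46 and 7.62 in WT cells. The 3 genotypes did not overlap, TM arrays being highest and WT arrays lowest, and all WT arrays were below 7.68, so the folds of Igf2 against WT rest on a dim level. Igf2 rose by 1.72 in TM against WT cells (SE 0.085, limma adjusted p = 7.58e-09), and by 0.90 or 1.86-fold in DM against WT cells (SE 0.085, limma adjusted p = 3.37e-06). It was the 1 gene of the 10 called in all 3 comparisons, with a TM against DM difference of 0.82 (SE 0.085, adjusted p = 9.05e-06).

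Neither receptor was called. Igf1r, the signalling receptor for both ligands, had log2 intensities of 11.20, 11.18 and 11.14 in TM cells, 11.02, 11.23 and 10.9996 in DM cells, and 10.92, 10.90 and 10.95 in WT cells. The TM and DM arrays overlapped, and all of them lay above the WT arrays. Its difference was 0.26 (SE 0.066, adjusted p = 0.00996) in TM against WT cells, 0.16 (SE 0.066, adjusted p = 0.0793) in DM against WT cells and 0.095 (SE 0.066, adjusted p = 0.302) in TM against DM cells, the last with a 95% interval of -0.050 to 0.24. Igf2r, the clearance receptor, had 11.01, 11.04 and 10.95 in TM cells, 10.98, 10.96 and 10.95 in DM cells, and 10.78, 10.75 and 10.84 in WT cells. Again the mutants overlapped and stood above WT. The differences against WT were 0.21 (SE 0.055, adjusted p = 0.00942) in TM cells and 0.17 (SE 0.055, adjusted p = 0.0246) in DM cells, both past the test and both under 1.5-fold, and TM differed from DM cells by 0.038 (SE 0.055, adjusted p = 0.625), with an interval of -0.081 to 0.16.

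Among the binding proteins, Igfbp2 and Igfbp7 were higher in both mutants, by 2.61-fold to 3.1-fold. IGFBP2 is a binding protein abundant in the embryo, and its gene had log2 intensities of 8.99, 8.79 and 8.63 in TM cells, 8.74, 8.74 and 8.78 in DM cells, and 7.38, 7.27 and 7.46 in WT cells. The TM arrays spread around the narrow range of the DM arrays, and all 6 lay above WT. The WT arrays were below 7.68, so these folds too rest on a dim level. Igfbp2 rose by 1.43 in TM cells (SE 0.084, limma adjusted p = 3.99e-08) and by 1.38 in DM cells (SE 0.084, limma adjusted p = 4.79e-08), each against WT cells. The TM against DM difference was 0.047 (SE 0.084, adjusted p = 0.704), with a 95% interval of -0.14 to 0.23, and its sign depended on 1 array, being -0.047 without TM replicate 1.

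IGFBP7 differs from the others in its low affinity for IGFs. Its gene had log2 intensities of 13.87, 13.85 and 13.86 in TM cells, 13.93, 13.88 and 13.99 in DM cells, and 12.37, 12.15 and 12.38 in WT cells. The mutants lay close together and well above WT. The rise was 1.56 (SE 0.069, adjusted p = 2.45e-09) or 2.95-fold in TM cells, and 1.63 (SE 0.069, adjusted p = 1.38e-09) or 3.10-fold in DM cells. Although the TM arrays all lay just below the DM arrays, the difference of -0.073 (SE 0.069, adjusted p = 0.447) did not pass the test, and its interval was -0.22 to 0.077.

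Igfbp3, Igfbp5 and Igfbp6 were called in TM cells against WT and against DM, and in DM cells none of the 3 was called against WT. IGFBP3, the main carrier of IGFs in serum, is encoded by a gene with log2 intensities of 10.85, 10.73 and 10.98 in TM cells, 9.18, 9.08 and 8.92 in DM cells, and 9.53, 9.60 and 9.53 in WT cells. TM arrays lay above and DM arrays below all WT arrays. Igfbp3 rose by 1.30 in TM against WT cells, or 2.46-fold (SE 0.079, limma adjusted p = 5.55e-08). In DM against WT cells the difference was -0.49 (SE 0.079, adjusted p = 0.000303), past the test but under the fold limit. The mutants themselves differed by 1.79 (SE 0.079, adjusted p = 2.97e-09), which was 3.47-fold. Of 14 fibroblast markers, 6 were called higher and 0 lower in TM cells against WT, and 5 higher and 0 lower against DM. Under the fold limit some of the 14 were lower in TM cells. Col3a1 was at -0.47 against WT (limma adjusted p = 7.78e-05) and at -0.39 against DM cells (limma adjusted p = 0.000392). Col1a1 was at 0.032 against WT (limma adjusted p = 0.816) and at -0.50 against DM cells (limma adjusted p = 0.000225). The part of the fibroblast markers in the TM differences of the IGF axis genes was not tested.

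IGFBP5 binds IGFs and also the extracellular matrix. Its gene had log2 intensities of 8.06, 7.86 and 7.996 in TM cells, 6.71, 6.77 and 6.64 in DM cells, and 6.53, 6.63 and 6.15 in WT cells. The TM arrays lay more than 1 above the rest, and DM arrays were narrowly above WT arrays, of which replicate 3 was the lowest. The TM against WT difference was 1.53 (SE 0.11, adjusted p = 1.79e-07), or 2.89-fold, and the TM against DM difference 1.26 (SE 0.11, adjusted p = 1.29e-06), or 2.40-fold. In DM against WT cells it was 0.27 (SE 0.11, adjusted p = 0.0668). The DM and WT levels of Igfbp5, like its mean over all arrays, were below 7.68, and a filter at that level removed Igfbp5 from the test. Its chromosomal neighbour Igfbp2, by contrast, was higher in both mutants.

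IGFBP6 prefers IGF2 to IGF1 as its ligand, and its gene was the 1 binding protein gene called lower. Its log2 intensities were 8.997, 8.86 and 8.81 in TM cells, 10.47, 10.34 and 10.27 in DM cells, and 10.91, 10.57 and 10.62 in WT cells. TM arrays were lowest, and DM arrays lay just below WT arrays. Igfbp6 fell by 1.81 in TM against WT cells, a 3.51-fold difference (SE 0.092, limma adjusted p = 9.58e-09), and the TM against DM difference was -1.47 (SE 0.092, adjusted p = 8.17e-08). In DM against WT cells it was -0.34 (SE 0.092, adjusted p = 0.0116), past the test and under the fold limit. The TM cells had higher RNA of Igf2 together with lower RNA of the binding protein that prefers it. Of 12 epithelial and mesothelial markers, 2 were called lower in TM against WT cells, Msln by 3.61 (limma adjusted p = 7.56e-13) and Krt19 by 1.81 (limma adjusted p = 5.27e-08). These 2 had the same order of genotypes as Igfbp6. Most of the 12 had another order, and 7 were called higher in DM than in WT cells. Among those 7 was Wt1, with means of 7.61 in TM, 11.59 in DM and 7.54 in WT cells. The part of these markers in the Igfbp6 difference was not tested.

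Igfbp4, whose product holds IGFs until it is cleaved by PAPP-A, was called in DM cells by a narrow margin. Its log2 intensities were 8.84, 8.78 and 8.62 in TM cells, 9.18, 9.16 and 9.17 in DM cells, and 8.39, 8.68 and 8.62 in WT cells. DM arrays were above all others, while TM and WT arrays overlapped. The DM against WT difference was 0.61 (SE 0.081, adjusted p = 6.37e-05), or 1.52-fold, with an interval of 0.43 to 0.78. The fold limit was missed with median centring of the arrays (0.54) and without WT replicate 1 (0.52). TM differed from WT cells by 0.19 (SE 0.081, adjusted p = 0.109), and from DM cells by -0.42 (SE 0.081, adjusted p = 0.00146), neither of them called.

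**Figure D2:**
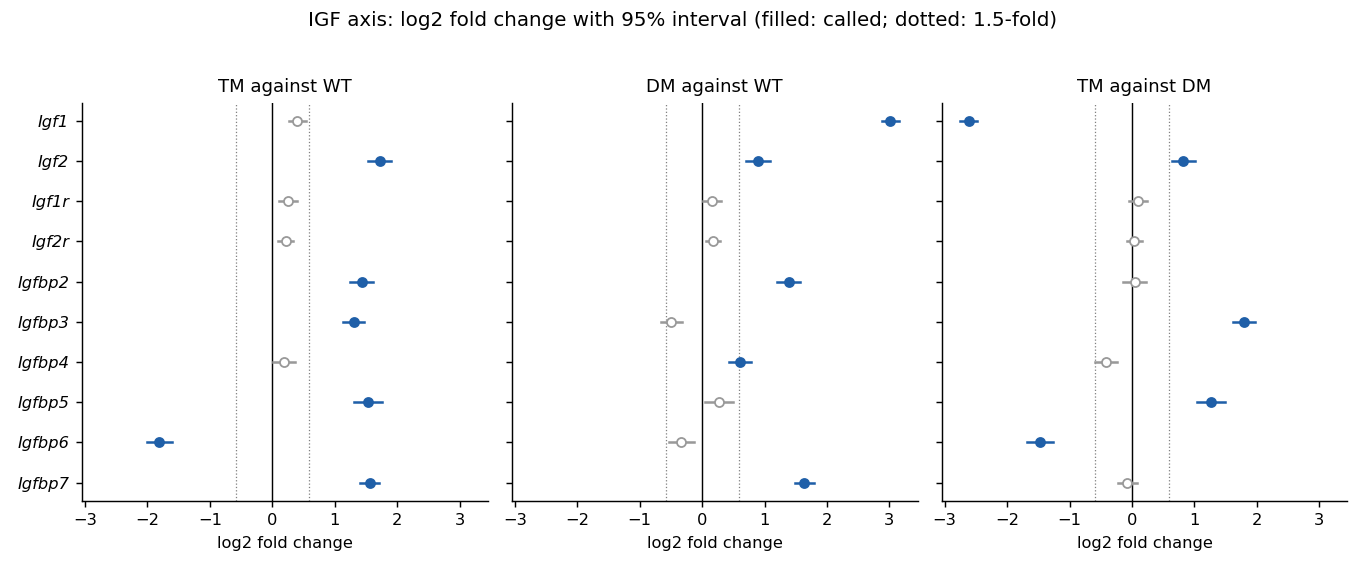
Log2 difference of each IGF axis gene in TM against WT, DM against WT and TM against DM cells, from left to right, with 95% intervals from the limma fit; filled points were called, open points were not, and dotted lines mark 1.5-fold. Igf1 stood apart in DM cells at 3.01, and Igfbp6 in TM cells at -1.81, while the 2 receptors stayed within 0.26 of 0.

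None of the remaining family members or insulin relatives was called. Of 6 other genes measured (Igfbp1, Igfals, Igfbpl1, Insr, Insrr and Ins2), limma called 0 in each comparison, and at an unadjusted p under 0.05 and any fold 0, 1 and 0 genes in TM against WT, DM against WT and TM against DM cells. The methods' t-test with the fold limit also called 0. Igfbp1, the neighbour of Igfbp3 with 0 protein-coding genes between them, had log2 intensities of 6.63, 6.75 and 6.70 in TM cells, 6.78, 6.82 and 6.53 in DM cells, and 6.72, 6.74 and 6.64 in WT cells, all below the median of the arrays. Its TM against WT interval was -0.17 to 0.17.

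Proteases that cleave IGFBPs, and the inhibitors of these proteases, were taken as a list of 9 genes. In TM against WT cells 5 were called, 3 higher and 2 lower. In DM against WT cells 5 were called, 0 higher and 5 lower. The count of 0 higher held at an unadjusted p under 0.05 and with the methods' t-test, the fold limit kept. These settings could not change it, since the fold limit alone set it. Adam9, at 0.42 (limma adjusted p = 0.000167), and Pappa2, at 0.24 (limma adjusted p = 0.0328), passed the test as higher in DM cells and were under 1.5-fold. In TM against DM cells 6 were called, 5 higher and 1 lower. The median log2 difference was 0.20, -0.78 and 0.93 in these comparisons, beside -0.029, 0.025 and -0.046 over all genes, of which 9.15%, 10.9% and 8.29% were called.

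Pappa, encoding the metalloprotease PAPP-A that cleaves IGFBP4 and IGFBP5, had log2 intensities of 10.03, 9.95 and 9.82 in TM cells, 7.04, 7.18 and 7.02 in DM cells, and 6.99, 7.17 and 7.13 in WT cells. The TM arrays were far above the others, which overlapped. Pappa rose by 2.84 in TM against WT cells, or 7.14-fold (SE 0.075, limma adjusted p = 2.36e-11), and the TM against DM difference was 2.85 (SE 0.075, adjusted p = 2.6e-11). DM differed from WT cells by -0.018 (SE 0.075, adjusted p = 0.879), and both levels were below the array median. Igfbp5, a substrate of this protease, was thus higher in the same cells, whereas Igfbp4 was not called there.

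Stc1 and Stc2 encode stanniocalcins, secreted glycoproteins that inhibit PAPP-A. Stc1 had log2 intensities of 9.04, 9.05 and 9.04 in TM cells, 8.05, 7.95 and 7.92 in DM cells, and 9.60, 9.63 and 9.70 in WT cells, with DM arrays lowest and WT arrays highest. It fell by 0.60 in TM cells, just past the limit at 1.51-fold (limma adjusted p = 3.99e-06), and, by a wider margin, by 1.67 in DM cells (limma adjusted p = 2e-10), each against WT cells. Stc2, named after its values were seen, was at 8.85 ± 0.16 in TM, 7.92 ± 0.21 in DM and 8.84 ± 0.11 in WT cells, with a DM against WT difference of -0.91 (SE 0.11, adjusted p = 2.4e-05) and a TM against WT difference of 0.015 (SE 0.11, adjusted p = 0.946). The call of Stc1 in TM cells was lost with quantile normalization (-0.58), cyclic loess (-0.55) and without WT replicate 3 (-0.57). The RNA of both inhibitors was lowest in DM cells, and TM arrays of Stc2 overlapped those of WT.

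Htra1, a secreted serine protease that degrades IGFBP5, had log2 intensities of 9.59, 9.26 and 9.32 in TM cells, 10.47, 10.30 and 10.57 in DM cells, and 12.26, 12.32 and 12.29 in WT cells. The 3 genotypes were apart, and both mutants were lower than WT. It fell by 2.90 in TM cells, or 7.46-fold (limma adjusted p = 1.03e-10), and by 1.85 in DM cells, or 3.59-fold (limma adjusted p = 5.89e-09). The TM against DM difference was -1.05 (SE 0.090, adjusted p = 1.57e-06).

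Adam12 and Adamts1 encode metalloproteases that act on IGFBP3 and IGFBP5 or on the matrix that holds them. Adam12 had log2 intensities of 9.52, 9.54 and 9.43 in TM cells, 8.10, 8.10 and 8.06 in DM cells, and 9.07, 9.11 and 9.11 in WT cells, the TM arrays above and the DM arrays below WT. Adamts1 had the same order, at 11.72, 11.67 and 11.63 in TM cells, 10.20, 10.03 and 10.23 in DM cells, and 10.92, 10.93 and 10.93 in WT cells. In DM against WT cells Adam12 fell by 1.01 (limma adjusted p = 1.41e-08) and Adamts1 by 0.78 (limma adjusted p = 7.25e-07). In TM against WT cells Adamts1 rose by 0.74 (limma adjusted p = 1.22e-06), while Adam12 differed by 0.40 (SE 0.054, adjusted p = 9.14e-05) and was not called. TM against DM differences were 1.41 (SE 0.054, adjusted p = 7.44e-10) for Adam12 and 1.52 (SE 0.063, adjusted p = 1.46e-09) for Adamts1. Adam9, a membrane protease also named after its values were seen, was called higher in TM against WT cells, at 0.67 (SE 0.063, adjusted p = 3.28e-06). Pappa2 and Ctsd were called in no comparison.

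**Figure D3:**
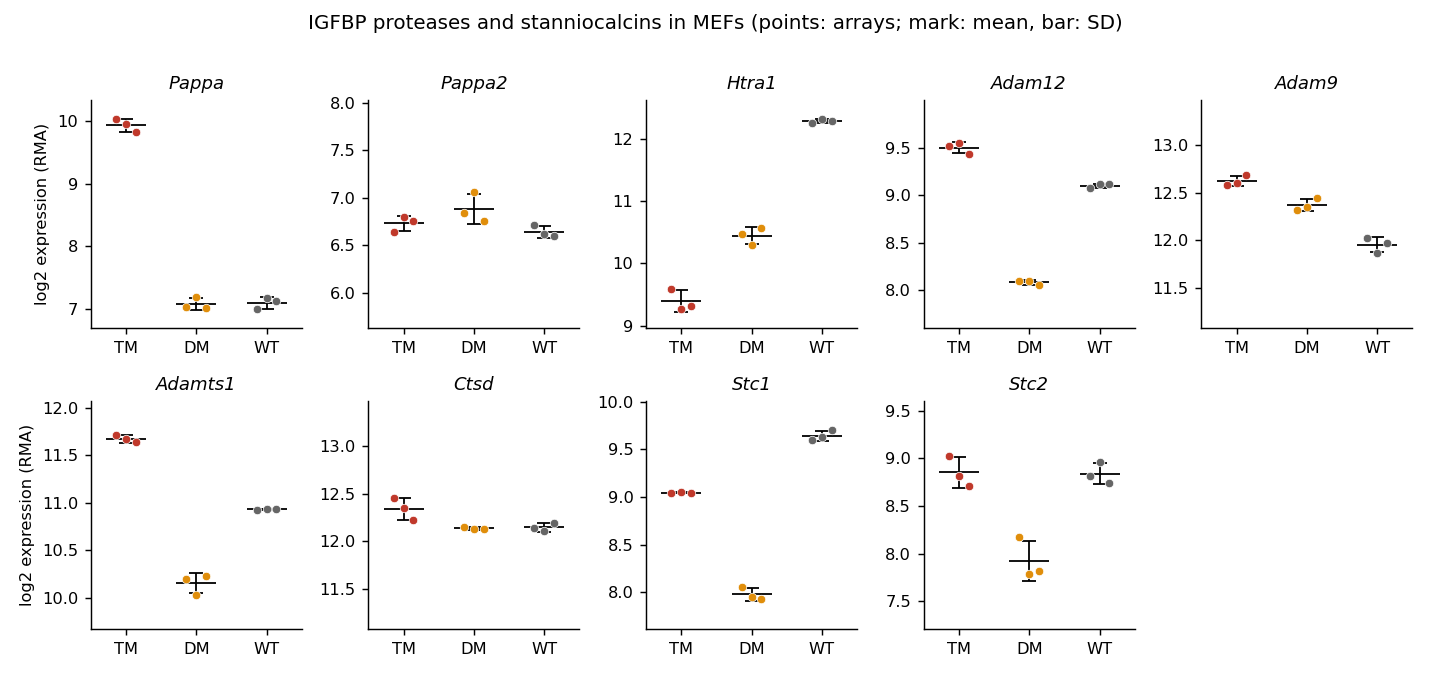
Log2 intensity on each array of the IGFBP proteases and their inhibitors, 1 panel per gene, with TM, DM and WT from left to right, each point 1 array, each mark the mean and each bar the SD of 3 arrays; vertical axes differ between panels. Pappa was highest in TM cells, Htra1 was lower in both mutants, and Adam12, Adamts1 and Stc1 were lowest in DM cells.

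Genes that act on the Igf2 locus or bind Igf2 mRNA were measured for 4 of 6 listed, H19 and Igf2bp2 being not analysed here. Plagl1, an imprinted zinc finger factor that acts on the Igf2 and H19 locus, had log2 intensities of 10.14, 10.29 and 10.40 in TM cells, 8.48, 8.46 and 8.66 in DM cells, and 8.61, 8.62 and 8.73 in WT cells. TM arrays were above the rest, and DM and WT arrays overlapped. It was 3.08-fold higher in TM than in WT cells, a difference of 1.63 (SE 0.079, adjusted p = 6.52e-09), and differed from DM cells by 1.74 (SE 0.079, adjusted p = 3.88e-09) and in DM against WT cells by -0.12 (SE 0.079, adjusted p = 0.288). Igf2, by comparison, was higher than WT in both mutants. Igf2bp3, whose product binds Igf2 mRNA, was called lower in DM against WT cells, at -0.80 (SE 0.061, adjusted p = 4.28e-07), and was not called in TM against WT cells, at -0.35 (SE 0.061, adjusted p = 0.000586).

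Mir483 lies within the span of Igf2 in RefSeq GRCm38.p6, on the same minus strand, and its mature sequences are shown because the host gene changed and the microRNA probe set did not pass the test. Capitals mark the seed, bases 2 to 8.
mmu-miR-483-5p, chr7:142654968-142654989: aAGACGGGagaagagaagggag
mmu-miR-483-3p, chr7:142654932-142654952: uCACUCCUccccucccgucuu
The Mir483 probe set had log2 intensities of 8.28, 8.46 and 8.42 in TM cells, 8.63, 8.40 and 8.35 in DM cells, and 8.46, 8.39 and 8.42 in WT cells, and the genotypes overlapped. Its differences were -0.036 (SE 0.078, adjusted p = 0.796) in TM against WT cells and 0.035 (SE 0.078, adjusted p = 0.766) in DM against WT cells, with intervals of -0.21 to 0.13 and -0.13 to 0.21. The array values do not separate the 2 mature arms from each other or from a longer transcript that holds them, so the mature microRNAs were not measured as such.

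Downstream of IGF1R, 28 of 31 listed signalling genes were measured. Limma called 4 in TM against WT cells, 3 higher and 1 lower, 7 in DM against WT cells, 5 higher and 2 lower, and 4 in TM against DM cells, 2 higher and 2 lower, against 9.15%, 10.9% and 8.29% of all genes. The median differences of the list were -0.023, 0.0017 and -0.028, beside -0.029, 0.025 and -0.046 over all genes. Among these genes the largest change against WT in both mutants was that of Grb14. This adaptor, which restrains insulin receptor signalling, had log2 intensities of 10.16, 10.12 and 10.31 in TM cells, 9.88, 9.87 and 9.89 in DM cells, and 7.77, 8.03 and 7.81 in WT cells. Both mutants were above WT, by 2.32 in TM cells (limma adjusted p = 1.64e-10) and by 2.01 in DM cells (limma adjusted p = 5.1e-10), and the TM against DM difference of 0.31 (SE 0.076, adjusted p = 0.00704) was not called. Grb10, an imprinted relative that restrains both the insulin and the IGF1 receptor, had 12.19, 12.22 and 12.26 in TM cells, 11.07, 11.10 and 11.10 in DM cells, and 10.59, 10.64 and 10.62 in WT cells. The 3 genotypes were apart, in the same order as for Igf2. Grb10 rose by 1.60 in TM cells, or 3.04-fold (limma adjusted p = 1.53e-10), differed by 0.47 (SE 0.052, adjusted p = 1.32e-05) in DM cells, under the fold limit, and TM stood 1.14 above DM cells (limma adjusted p = 4.07e-09).

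Pik3r1, the p85α regulatory subunit of PI3 kinase, had log2 intensities of 11.34, 11.30 and 11.26 in TM cells, 10.64, 10.68 and 10.85 in DM cells, and 10.19, 10.07 and 10.16 in WT cells. TM arrays were highest and WT arrays lowest, with no overlap. It rose by 1.16 in TM against WT cells (limma adjusted p = 2.81e-08), and the DM against WT difference of 0.58 (SE 0.066, adjusted p = 1.54e-05) fell just short of 1.5-fold and was called with quantile normalization (0.65) and cyclic loess (0.67). Gab1, a docking protein for PI3 kinase and SHP2, had 10.26, 10.24 and 10.24 in TM cells, 11.36, 11.40 and 11.37 in DM cells, and 10.21, 10.25 and 10.26 in WT cells. It was higher in DM cells, where Igf1 was also high, by 1.14 against WT (limma adjusted p = 2.5e-09), and TM cells differed from WT by 0.0074 (SE 0.051, adjusted p = 0.942).

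The remaining called genes of the pathway were named after their values were seen. Irs1 and Irs2, the docking proteins that couple IGF1R to PI3 kinase, were called higher in DM against WT cells, at 0.66 (limma adjusted p = 7.62e-06) and 0.68 (limma adjusted p = 1.61e-05). The Irs1 call rested on its brightest probe set, the mean of its probe sets giving 0.39. In TM against WT cells Irs1 was at 0.49 (SE 0.069, adjusted p = 0.000120) and Irs2 at 0.46 (SE 0.077, adjusted p = 0.000514). Both were higher than WT and past the test, but under the fold limit and so not called. Pik3r3, another regulatory subunit, was also called higher in DM cells, at 0.73 (SE 0.080, adjusted p = 1.2e-05). Ptpn1, encoding a phosphatase of the insulin and IGF1 receptors, fell by 0.89 in TM cells and by 0.87 in DM cells against WT (limma adjusted p = 5.01e-06 and 5.67e-06). Eif4ebp1, a repressor of translation under mTOR control, fell by 0.88 in DM against WT cells (limma adjusted p = 3.11e-07) and differed by -0.13 (SE 0.065, adjusted p = 0.157) in TM against WT cells. The DM increases of Gab1, Irs1, Irs2 and Pik3r3 were in the cells in which the epithelial and mesothelial markers were high, and the part of those markers was not tested.

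**Figure D4:**
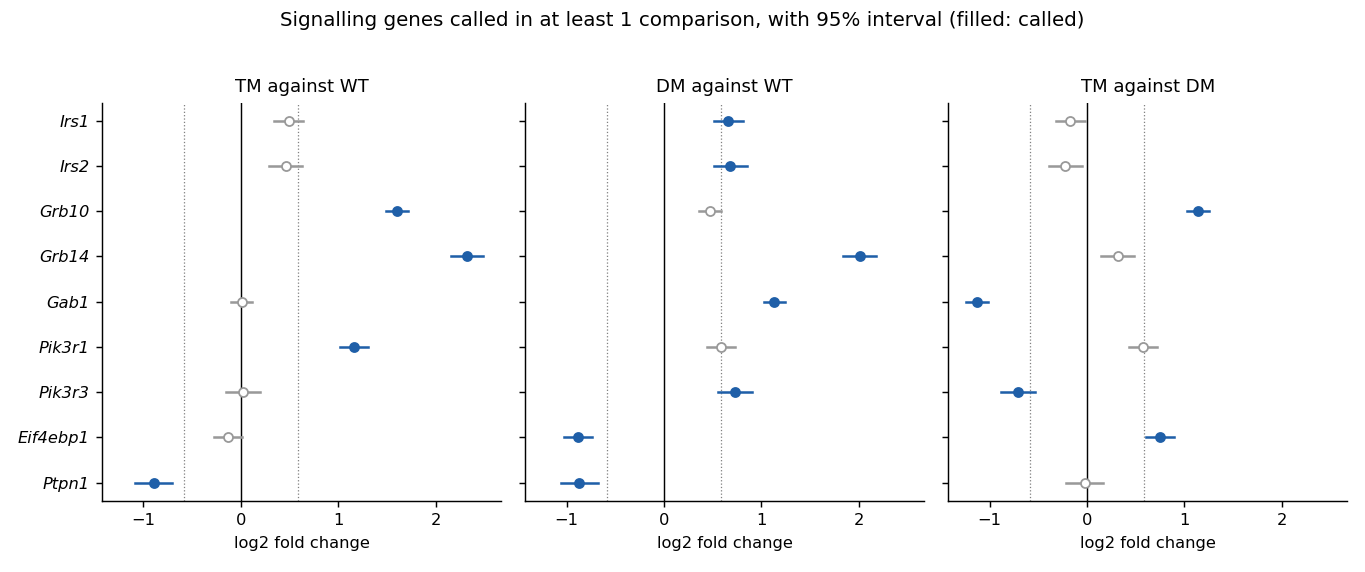
Log2 difference of the called signalling genes downstream of IGF1R in TM against WT, DM against WT and TM against DM cells, from left to right, with 95% intervals from the limma fit; filled points were called, open points were not, and dotted lines mark 1.5-fold. Grb14 was higher in both mutants, Grb10 and Pik3r1 were highest in TM cells, and Gab1 stood out in DM cells at 1.14.

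For the 3 IGF axis genes with the widest range of genotype means, the genes of most similar pattern were sought by Pearson correlation over the 9 arrays among 1387 genes whose genotype means ranged over at least 1. These correlations share the genotypes, are descriptions and carry no test. Nearest to Igf1 were Ccser1 (r = 0.999), Akap5 (0.998) and Gata4 (0.998), the last a transcription factor of heart and mesothelial lineages with mean log2 intensities of 7.92 in TM, 10.89 in DM and 7.63 in WT cells. Nearest to Igfbp6 were Spint1 (0.995), Pdk1 (0.992) and Epb41l4a (0.988). Nearest to Igfbp3 were Adm (0.996), Sema5a (0.995) and Adamts12 (0.995).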

How the data were processed

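Total RNA of MEFs was hybridised to Affymetrix Gene ST 1.0 arrays, 3 for each of 3 genotypes. The authors' deposited values are log2 intensities, 1 per probe set and array, background-corrected, normalized between arrays and summarised by RMA. Between-array normalization removes overall differences in signal, so a global shift could not be seen, and the number of arrays limits the precision. Of 35556 probe sets, 21789 carry 1 gene symbol, 1621 several and 12146 none listed. The brightest was used for the 999 genes with several, leaving 19938 genes.

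A linear model over the 9 arrays (6 residual degrees of freedom) was fitted with lmFit and moderated with eBayes of limma 3.58.1, run under R 4.3.3, and p-values were Benjamini-Hochberg adjusted over all genes. A call needed an adjusted p under 0.05 and over 1.5-fold. The fit was tested on simulated data. The members and gene lists were chosen with earlier results of these data known. All 10 members are named. In the other pathway lists up to 4 called genes with the largest change against WT and up to 2 in TM against DM cells are named by rule, with Igfbp1, and genes outside it are marked. The alternatives were another scaling, test, filter, fold limit or probe set rule, and each array left out. Promoters and miRNAs are from RefSeq GRCm38.p6. Probe-level data were not analysed here.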

Additional observations from a re-analysis of the deposited data

Results flagged for a closer look

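The 10 IGF axis genes and the 6, 9, 4 and 28 measured genes of the pathway lists were searched for mutants on opposite sides of WT. For 3 of these genes, every TM array lay above every WT array and every DM array below every WT array. Limma called the difference between the mutants for each. Over all genes 277 of 19938, or 1.39%, had this pattern, 1 of the fibroblast markers (Thy1) among them. The reverse pattern was found for 224 genes, or 1.12%. Igfbp3, the serum carrier gene, differed by 1.79 on the log2 scale between TM and DM cells. Adamts1, a matrix protease gene, differed by 1.52, and Adam12, which encodes a protease of IGFBP3, by 1.41. Fibroblast markers, of which 5 of 14 were called higher and 0 lower in TM against DM cells, and epithelial and mesothelial markers, of which 0 of 12 were called higher and 9 lower, moved between the same cells, and their part in these differences was not tested.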

How the results depend on the processing

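The fold limit set the counts of all genes. At 2-fold, 781, 885 and 676 of all genes were called in TM against WT, DM against WT and TM against DM cells. Of the IGF axis genes 6, 3 and 4 were called at 2-fold, the same 6 as before in TM against WT cells. Igf2 and Igfbp4 were lost in DM against WT cells, and Igf2 in TM against DM cells. With no fold limit 6338, 7340 and 6350 of all genes were called, and 9, 8 and 6 of the IGF axis genes. With the 1.5-fold limit 6, 5 and 5 of the IGF axis genes were called. With 1 array left out, the IGF axis counts ranged over 6 to 6, 4 to 5 and 5 to 5, and those of all genes over 1798 to 1901, 2087 to 2262 and 1650 to 1723. The lowest DM count came from leaving out WT replicate 1, where Igfbp4 gave 0.52, and Igfbp4 also missed the limit with median centring, at 0.54. The sign of the Igfbp2 difference in TM against DM cells turned to -0.047 without TM replicate 1 and reached 0.13 without TM replicate 3, the range over arrays left out, and it was not called in any. Of the other fold changes of the 10 genes, 268 of those with an array left out kept direction and call. So did 356 of those under the other alternatives, the fold limits not included. Removing genes dimmer than 7.68 left 11077 genes and took out Igfbp5. Deviations of same-numbered arrays from their genotype means correlated at -0.24 to 0.17, and 1 of 9 pairs exceeded 0.1. Arrays of different numbers were not compared in this way, so the check cannot settle whether replicate numbers pair the arrays. With the replicate number as a block, 6, 5 and 5 of the IGF axis genes and 1824, 2184 and 1653 of all genes were called. The 34 calls among proteases, Igf2 regulators and signalling genes were tried, after seeing the data, under the same alternatives except the other fold limits. Of these calls 2 were lost in some setting, Stc1 in TM against WT cells and Irs1 in DM against WT cells, as given above, and 0 reversed. Calls under 2-fold, such as that of Adam9 in TM against WT cells at 1.59-fold, would also be lost at the 2-fold limit. Some uncalled differences of these lists, such as that of Pik3r1 in DM against WT cells, passed the limit in some setting.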
